A study of Mus musculus with 8 samples.

Results

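The AP-1 and Egr immediate early factors described here are 10 transcription regulators: Fos and Fosb, Jun, Junb and Jund, Atf3, Egr1, Egr2 and Egr3, and Ier2. They were chosen by gene symbol, and all 10 were present among the 15867 genes of the deposited table. RNA was profiled from F4/80-positive macrophages isolated from the adipose tissue of mice fed a high-fat diet for 20 weeks. The control group held 4 samples of genotype Mirc11fl/fl Mirc22fl/fl Lyz2+/+. The knockout group held 4 samples of genotype Mirc11fl/fl Mirc22fl/fl Lyz2Cre/Cre. Mirc11 and Mirc22 are the miR-23-27-24 microRNA clusters, floxed in both groups. Cre is expressed from the Lyz2 locus, which is active in macrophages and also in neutrophils and other myeloid cells. The controls carry no Cre, and in the knockout both Lyz2 alleles hold it, so loss of Lyz2 cannot be told apart from loss of the clusters. Ages are not given in the labels, and neither is the time or temperature of tissue handling before selection.

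Immediate early genes are transcribed within minutes of a stimulus, without new protein synthesis, when MAP kinases and calcium or cAMP signals activate SRF with its ternary complex partners and CREB at their promoters. Fos and Jun proteins pair through leucine zippers as AP-1, while Egr proteins bind GC-rich DNA through zinc fingers. Their messengers are short-lived. In macrophages they respond to growth factors, microbial products and adhesion, and in many tissues they are known to rise while cells are being dissociated, so their level in isolated cells can reflect the handling as well as the tissue.

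Of the 10 factors, none differed between knockout and control at an adjusted p under 0.05 (limma, adjusted over 15862 genes), against 3.61% of all genes tested. Every factor had overlapping groups, while the groups did not overlap for 13.7% of tested genes. The larger differences were between libraries of the same group. Fosb, Junb, Egr1, Ier2, Fos, Egr3, Jun and Jund were lowest of their groups in control replicate 1 and knockout replicate 2 and highest of the controls in replicate 4. All of these but Egr3 were highest of the knockout libraries in replicate 1. Egr2 and Atf3 shared that pattern only in part: both were lowest in knockout replicate 2, and Egr2 was also lowest in control replicate 1.

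The microRNAs removed in the knockout are shown first, because a microRNA recognises a messenger mainly by pairing its seed with the 3′ UTR. The seed, bases 2 to 8 of the mature RNA, is in capitals (RefSeq, GRCm38.p6, all on chromosome 8, plus strand). The cluster on the other chromosome carries members with the same seeds.
miR-23a-3p, chr8:84208563-84208583: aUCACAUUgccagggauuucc
miR-27a-3p, chr8:84208727-84208747: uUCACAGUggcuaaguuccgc
miR-24-3p, chr8:84208875-84208896: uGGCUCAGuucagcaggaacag

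Matches of 7 bases to these seeds (AATGTGA for miR-23, ACTGTGA for miR-27 and CTGAGCC for miR-24) were searched on the sense strand of the longest annotated 3′ UTR of each gene (GENCODE M21, mm10). Of the 10 factors 3 held at least 1 match (Fosb, Egr3 and Atf3), beside 40.5% of 14920 tested genes, and 7 held none. By family, 2 factors held a match to miR-23, 1 to miR-27 and 2 to miR-24, beside 16.5%, 17.6% and 18.9% of tested genes. Each match is printed with the bases before it, with the match in capitals, including the A that follows it in an 8-base match.
Fosb, miR-23, 8-base match, chr7:19304166-19304187, minus strand: cccgctgattccaaAATGTGAA
Fosb, miR-27, 8-base match, chr7:19303921-19303942, minus strand: ctggagcgctttatACTGTGAA
Egr3, miR-23, 7-base match, chr14:70081898-70081919, plus strand: tgaatactttttatAATGTGAt
Egr3, miR-24, 8-base match, chr14:70080193-70080214, plus strand: tgatccaggggccgCTGAGCCA
Atf3, miR-24, 8-base match, chr1:191170792-191170813, minus strand: tggctgatgaccagCTGAGCCA
A match is a description of letters, not a shown target. The log2 differences of these 3 genes between knockout and control, given below, did not point the same way: -0.38 for Fosb, 0.41 for Egr3 and -0.28 for Atf3.

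Promoter sequence is shown for 4 factors because these genes either rose and fell together across libraries (Fos, Fosb and Jun) or did not follow them (Atf3). RefSeq promoters of 300 bases, 250 before the start site and 50 after it, were available for 7 of the 10. The 140 bases before the start site are printed 5′ to 3′ on the gene's strand (GRCm38.p6), with motif letters in capitals.
Fos, chr12:85473750-85473889, plus strand: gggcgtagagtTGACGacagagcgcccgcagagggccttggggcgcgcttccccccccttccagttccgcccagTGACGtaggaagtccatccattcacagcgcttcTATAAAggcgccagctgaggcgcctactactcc
Fosb, chr7:19310046-19310185, minus strand: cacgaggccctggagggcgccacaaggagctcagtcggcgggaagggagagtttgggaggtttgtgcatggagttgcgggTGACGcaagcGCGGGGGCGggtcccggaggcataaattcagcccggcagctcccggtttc
Jun, chr4:95052223-95052362, minus strand: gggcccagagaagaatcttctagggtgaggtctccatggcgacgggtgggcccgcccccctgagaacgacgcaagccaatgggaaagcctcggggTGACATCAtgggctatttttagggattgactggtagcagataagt
Atf3, chr1:191183334-191183473, minus strand: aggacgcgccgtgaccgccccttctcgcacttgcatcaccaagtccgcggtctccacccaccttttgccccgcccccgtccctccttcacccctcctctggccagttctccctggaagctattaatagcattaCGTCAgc
Capitals mark the core of the cAMP response element (TGACG, or CGTCA on the other strand), the element of the Jun promoter (TGACATCA), an Egr site (GCGNGGGCG) and a TATA box (TATAAA). Both strands were searched. The core stood 129 and 66 bases before the start of Fos, 60 before that of Fosb and 7 before that of Atf3, and 20.8% of 32851 promoters hold it. The Atf3 start used here lies inside the annotated span of the gene (chr1:191170296-191218039, minus strand), downstream of its 5′ end. The Jun element lay 45 bases before the start and is held by 3.62% of promoters, the Egr site of Fosb lay 50 bases before it (5.55%), and the TATA box of Fos lay 33 bases before it (13.6%). Junb and Egr2 also held the core, and Egr2 a CArG box, the SRF element, which 1.63% of promoters hold. No promoter of the 7 held the full element TGACGTCA (1.79%) or the AP-1 site TGACTCA (5.20%) in its 300 bases. Sequence farther upstream was not searched, so an element missing here may lie there. Of the 4 genes printed, Fos, Fosb and Atf3 held the core, and Jun held the Jun element without the core. These 4 were picked after their values were seen. The part of promoter sequence in the shared pattern was not tested.

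The labels were first checked against the Lyz2 locus. Lyz2 stood between 156727 and 204853 normalized counts in the controls and between 174 and 273 in the knockout, as the genotype labels have it, while the microRNAs themselves were not measured. A normalized count is a whole read count divided by a single factor per library. The libraries held 31789395 to 46621080 reads, and even Egr3, the lowest factor, read at least 234 normalized counts in each of them. Macrophage markers were abundant in all libraries (Csf1r 41108 to 70212, Adgre1 37440 to 54126). Collagen and endothelial transcripts were present in all libraries as well (Col3a1 41317 to 94319, Pecam1 12961 to 27631), so the values are those of a macrophage-enriched cell mixture. In such bulk RNA, a change in the share of a cell type and a change in RNA per cell cannot be told apart.

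Fos (chr12:85473890-85477273 in mm10), the founding partner of Jun in AP-1, read 18258, 21781, 26049 and 41995 normalized counts in control replicates 1 to 4. In knockout replicates 1 to 4 it read 25767, 18368, 19536 and 23554. The highest control exceeded all knockout libraries, the lowest control lay below all of them, and the groups overlapped throughout. The means were 27021 ± 10479 in the control and 21806 ± 3450 in the knockout (SD, n = 4 each), and the log2 difference of -0.25 ± 0.24 (SE) had an adjusted p of 0.588 (limma). Here and below, differences are knockout minus control on the scale log2(normalized count + 1).

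Fosb (chr7:19302696-19310051), a second Fos family member that also yields a shortened, persistent isoform in neurons, spread most. It read 3499, 6796, 7327 and 14230 in the controls. In the knockout it read 8158, 3775, 4773 and 5924. The highest control library was 4.07 times the lowest, and the knockout values fell inside that range. The log2 difference of -0.38 ± 0.39 had a 95% interval of -1.26 to 0.51 and an adjusted p of 0.628 (limma), so this number of libraries leaves room for a sizeable difference either way.

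The 3 Jun genes, each the product of a single exon, lay close to equal between groups. Jun (chr4:95049034-95052222), the main partner of Fos, read 17157, 22680, 22812 and 29788 in the controls and 29200, 19785, 20090 and 21038 in the knockout. Knockout replicate 1 stood apart from its group and lay next to the highest control. The log2 difference was -0.03 ± 0.18, with a 95% interval of -0.43 to 0.37 and an adjusted p of 0.947 (limma).

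Junb (chr8:84974484-84978718), an AP-1 subunit that can restrain Jun, read 13646, 19452, 17621 and 28388 in the controls. In the knockout it read 25571, 12539, 15858 and 21264. Both groups spread about equally and covered nearly the same range, and the log2 difference was -0.07 ± 0.26 (adjusted p = 0.905, limma). Jund (chr8:70698949-70700616), the Jun family member with the steadiest expression in most cells, read 12704, 17665, 18760 and 21982 in the controls and 17895, 13222, 16230 and 16593 in the knockout. Its groups overlapped too, with a log2 difference of -0.13 ± 0.16 (adjusted p = 0.683, limma).

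Atf3 (chr1:191170296-191218039), a stress-induced partner of Jun proteins that also damps inflammatory transcription, came closest to a difference. It read 16170, 12909, 13289 and 15354 in the controls and 11154, 10648, 11891 and 13955 in the knockout. Of the knockout libraries 3 lay below every control, and replicate 4 lay inside the control range. The log2 difference of -0.28 ± 0.10 had a 95% interval of -0.51 to -0.04. Its unadjusted p was 0.0251 and its adjusted p 0.175 (limma), and 21.2% of tested genes had an unadjusted p under 0.05. Atf3 missed the threshold with the count models as well, at an adjusted p of 0.185 with edgeR, which called 3.62% of all genes, and 0.0926 with DESeq2, which called 10.6%. The authors' deposited table gives an adjusted p of 0.0908.

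Egr1 (chr18:34859823-34864984), the most abundant Egr factor, read 6313, 9493, 10382 and 15027 in the controls and 13786, 8813, 8864 and 10877 in the knockout. The knockout values lay inside the control range, and the log2 difference was 0.08 ± 0.25 (adjusted p = 0.887, limma). Egr2 (chr10:67535475-67542188), known in macrophages for its part in differentiation and alternative activation, read 1873, 2235, 2033 and 1886 in the controls and 1662, 1377, 1870 and 2165 in the knockout. Its controls were closely spaced and its knockout libraries wider, with a log2 difference of -0.20 ± 0.13 (adjusted p = 0.421, limma).

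Egr3 (chr14:70077203-70082614), a target of Egr1 in several cell types, was the least abundant. It read 234, 241, 305 and 417 in the controls and 448, 263, 385 and 494 in the knockout. In the knockout 2 libraries exceeded every control. The log2 difference of 0.41 ± 0.24 was the largest of the 10 in size, and its 95% interval of -0.12 to 0.94 included 0 (adjusted p = 0.358, limma).

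Ier2 (chr8:84661331-84662852), a small nuclear immediate early protein, read 2864, 4683, 4654 and 5732 in the controls. In the knockout it read 7016, 3565, 5139 and 5632. The highest value of all 8 libraries was thus in the knockout and the lowest in the control, and the log2 difference was 0.25 ± 0.24 (adjusted p = 0.594, limma). Ier2 and Junb lie on the same chromosome as the Mirc11 cluster, 0.453 and 0.766 Mb from Mir23a, and Jund lies 13.5 Mb from it.

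**Figure D1:**
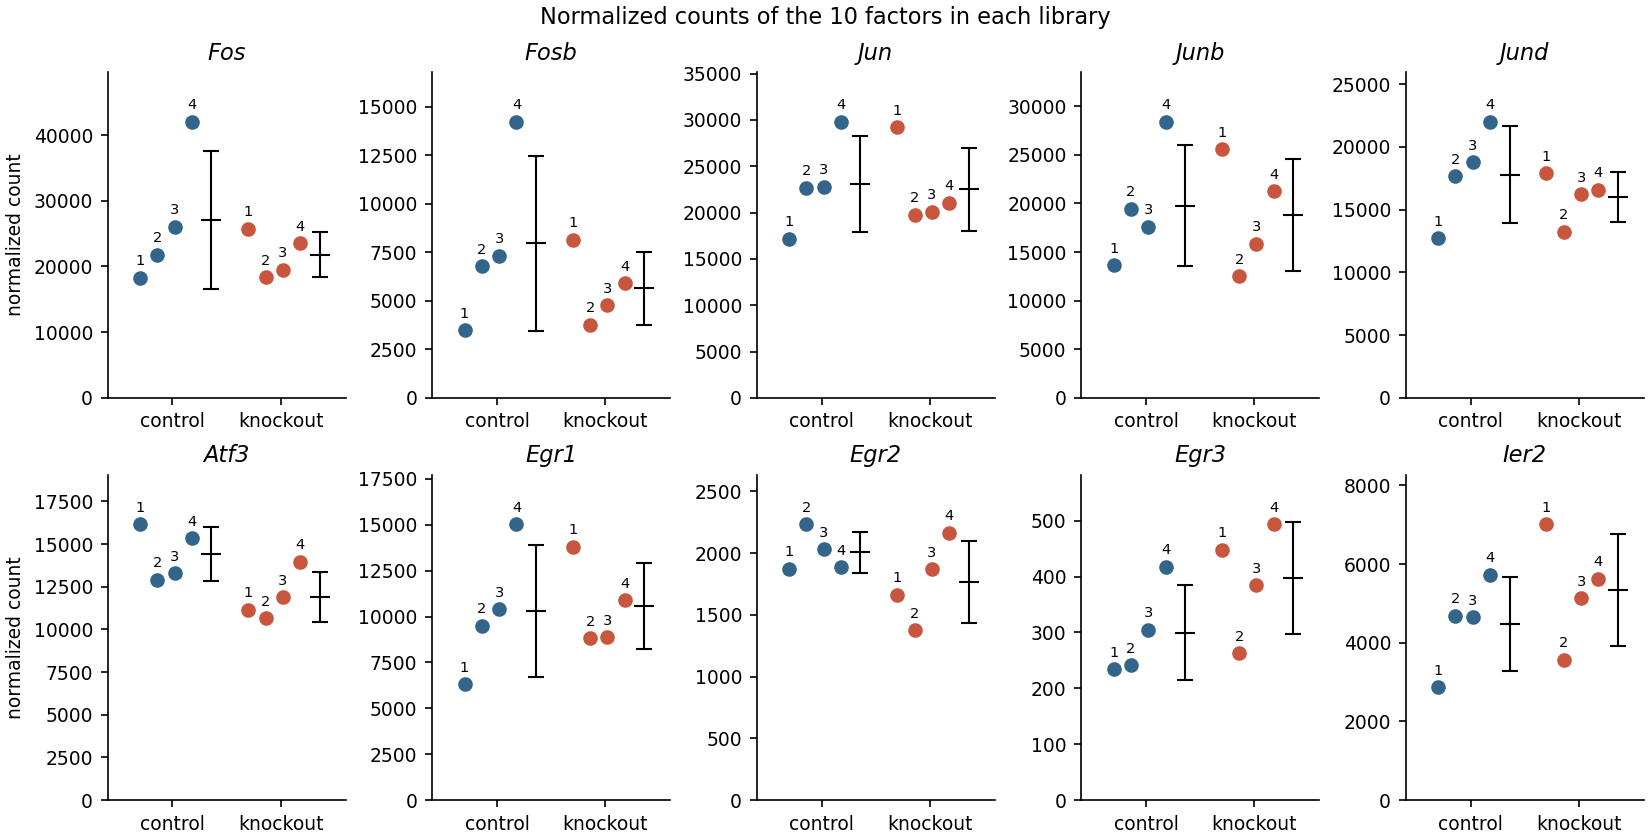
Normalized counts of the 10 factors (vertical axes, each from 0) in the 4 control (blue) and 4 knockout (red) libraries, numbered by replicate, with the mean ± SD beside each group. The groups overlap for all 10 factors, and Fosb reaches from 3499 to 14230 within the controls.

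In all, 7 factors had a lower mean log2 value in the knockout and 3 a higher one (Egr1, Egr3 and Ier2). The median difference over the 10 was -0.10, beside 0.00 over all genes tested. Atf3 alone had an unadjusted p under 0.05, and edgeR and DESeq2, like limma, called 0 of the 10. In the authors' deposited table Atf3 had the smallest adjusted p of the 10, and none was under 0.05. The intervals show what 4 libraries a group could resolve. For Jun, Egr2, Jund and Atf3 a difference beyond 0.51 in either direction lay outside the 95% interval, whereas for Fos, Fosb, Egr3 and Ier2 differences of 0.78 or more in a single direction stayed inside it.

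**Figure D2:**
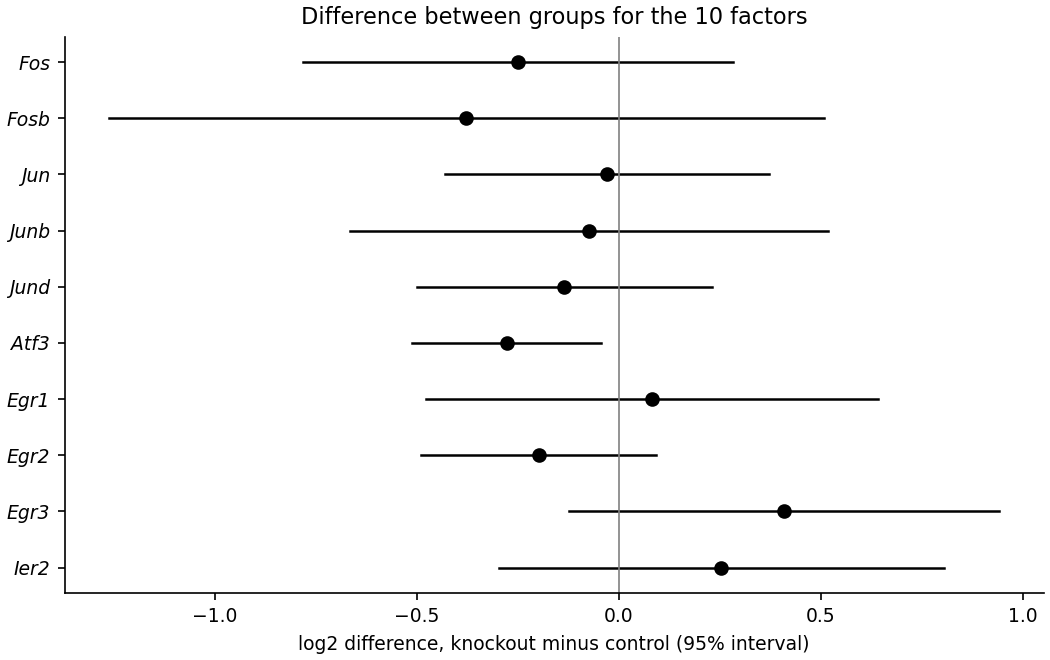
Log2 difference between knockout and control (horizontal axis, points) with its 95% interval (lines, from limma) for each factor. Only the interval of Atf3, -0.51 to -0.04, leaves out 0, before adjustment over all genes.

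Per kilobase of transcript (the transcript with the longest 3′ UTR, from GENCODE M21), the factors fell into 4 tiers of level. The first tier held Fos at a mean of 11581 normalized counts per kilobase over the 8 libraries, then Junb at 10665, Jund at 10121, Jun at 7155 and Atf3 at 6639. Neighbours in this order overlapped between libraries. Ier2 at 3226, Egr1 at 2329 and Fosb at 1933 followed, again with overlapping neighbours, and the highest Ier2 library (4609) lay below the lowest Atf3 library (5367). Egr2 at 637 and Egr3 at 88.4 each stood apart from their neighbours in every library.

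The spread between libraries of a group was wider for the factors than for most genes. The within-group SD of the log2 values was 0.67 for Fosb, 0.45 for Junb, 0.42 for Egr1 and Ier2, 0.40 for Fos and 0.39 for Egr3. It was 0.30 for Jun, 0.27 for Jund, 0.21 for Egr2 and 0.16 for Atf3. The median over the 10 was 0.40, beside 0.15 over all tested genes and 0.12 over the 12363 genes whose mean reached 100. All 10 lay above the median of all tested genes, from percentile 53.0 (Atf3) to percentile 94.3 (Fosb). Without control replicate 4 the median SD was 0.29.

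**Figure D3:**
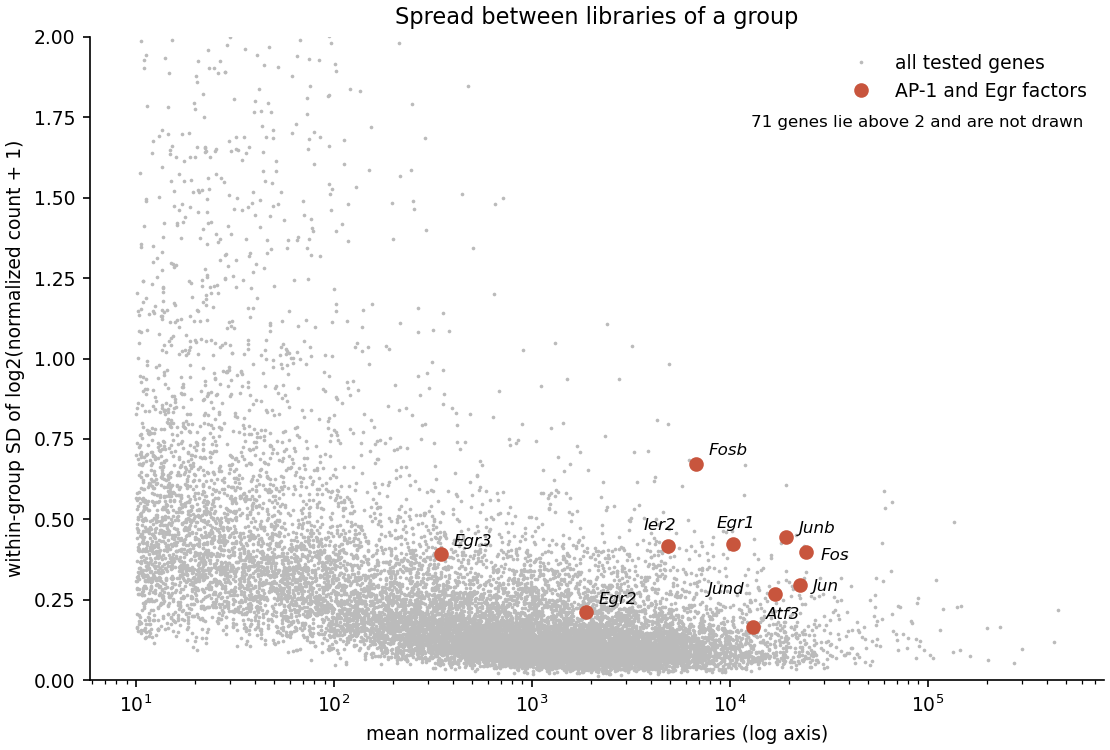
Within-group SD of log2(normalized count + 1) (vertical axis) against the mean normalized count over 8 libraries (horizontal log axis) for all tested genes (grey) and the 10 factors (red). Fosb (0.67) stands highest and Atf3 (0.16) lowest of the factors.

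The spread was shared. Control replicate 1 was the lowest control for 9 of the 10 factors, all but Atf3, and the lowest of all 8 libraries for 7. Control replicate 4 was the highest control for 8, all but Egr2 and Atf3. These libraries held the highest and lowest control value of 27.9% and 32.1% of all tested genes. In the knockout, replicate 2 was lowest for all 10 factors (26.9% of all tested genes), and replicate 1 was highest for 7 (26.4%), the others, Egr2, Egr3 and Atf3, being highest in replicate 4. As mean log2 deviations of the 10 factors from their group mean, the controls 1 to 4 stood at -0.43, -0.05, 0.02 and 0.46, and the knockout libraries at 0.28, -0.36, -0.08 and 0.15.

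After removal of the group means, the 8 factors other than Egr2 and Atf3 correlated across the 8 libraries in each of their 28 pairs, with Pearson r from 0.69 to 0.99 and a median of 0.89. The closest pair was Fosb and Egr1. The points share the libraries and their normalization, and these values are a description. Without control replicates 1 and 4, the median over the 6 libraries left was 0.85 and the range 0.45 to 0.97. Within the controls alone the median was 0.96 (lowest pair 0.76) and within the knockout alone 0.90 (lowest pair 0.47), each from only 4 libraries. Egr2 and Atf3 correlated with those 8 factors at a median r of 0.13, from -0.20 to 0.47, over the 8 libraries. Without control replicates 1 and 4 these values ran from -0.20 (Jun with Atf3) to 0.73 (Egr2 with Egr3). Their low r thus depended in part on those 2 libraries. Leaving out Egr2 and Atf3 was decided after their values were seen.

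**Figure D4:**
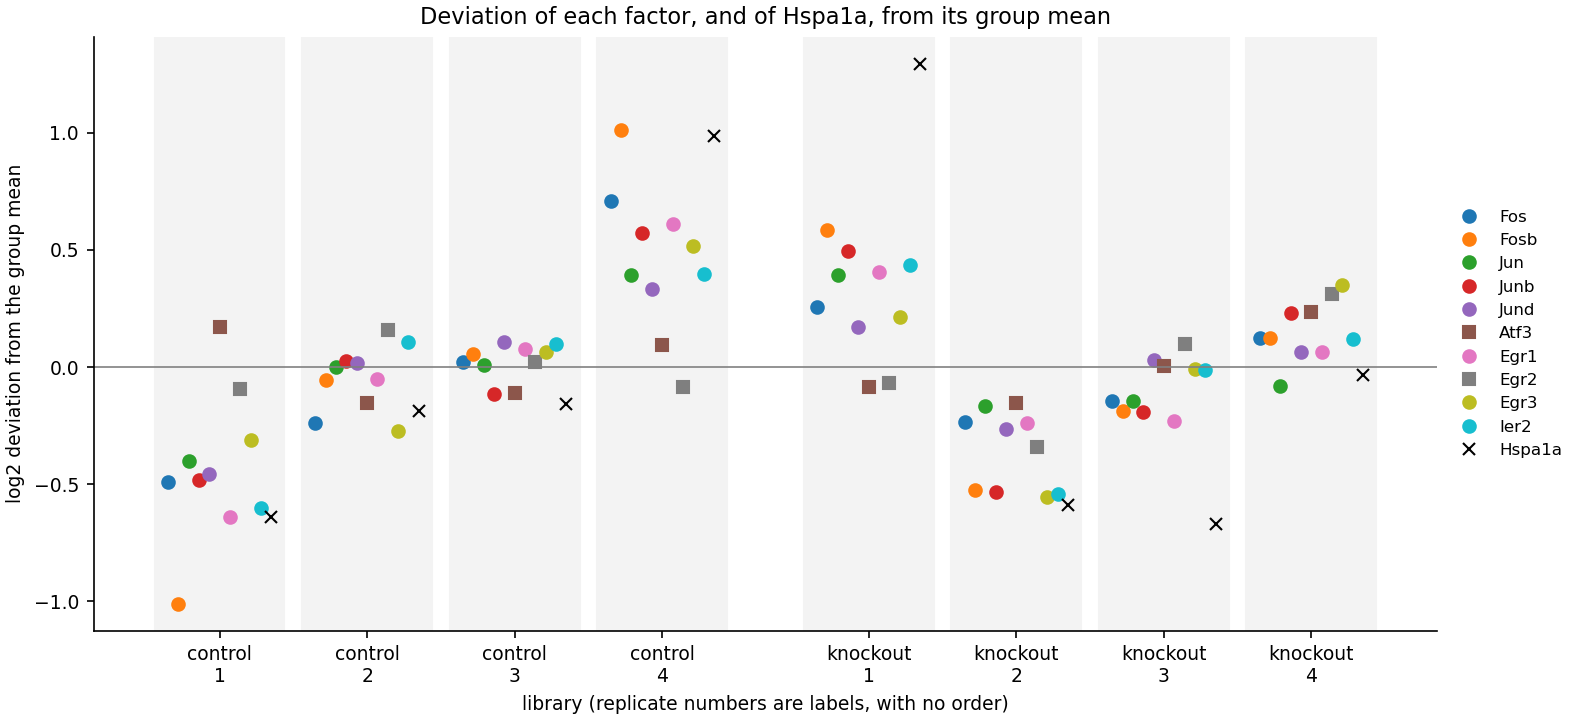
Log2 deviation of each factor from its group mean (vertical axis) in each library (horizontal axis; circles, with squares for Egr2 and Atf3), and of the heat shock gene Hspa1a (crosses). Most factors lie below 0 in control replicate 1 and knockout replicate 2 and above 0 in control replicate 4 and knockout replicate 1.

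Other immediate early genes varied with the factors from library to library. Of 43 measured, none passed the test between groups with limma or edgeR, and 3 did with DESeq2, while 4 higher and 4 lower had an unadjusted p under 0.05. Beside this list and those below, limma called 3.61% of all tested genes, edgeR 3.62% and DESeq2 10.6%, and 21.2% had an unadjusted p under 0.05 (limma). In this list the smallest p belonged to Bhlhe40, a repressor of the clock and stress responses (log2 difference -0.28, adjusted p = 0.127, limma), and Hes1, a Notch target (0.60, adjusted p = 0.129). The median r of the 43 with the mean of the 10 factors was 0.71, beside 0.00 over all tested genes, and 22 of the 43 exceeded 0.7, as did 7.90% of all tested genes. The list had been chosen with these data known, so its likeness is no independent evidence.

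Pim1, a kinase induced by cytokines, had an r of 0.98 with that mean and read 1843, 2410, 2232 and 3553 in the controls and 2976, 1688, 2129 and 2659 in the knockout. Ppp1r15a, which relieves the block of translation after stress, had 0.94. Zfp36, which destabilises AU-rich messengers, had 0.93, and so had Btg2. Rhob, a small GTPase and the most abundant of the list, had 0.92. The nuclear receptor Nr4a1 also had 0.92, and Klf2 had 0.91. Dusp1, the phosphatase that ends MAP kinase signalling, followed less closely at 0.80. It reached 45772 in control replicate 4, against 9404 to 22691 in the other 7 libraries. Others of the list did not follow: Myc had an r of 0.05, Cebpd 0.04, and Bhlhe40 -0.75. Per1, a clock gene, had 0.31, with 9815 in control replicate 4 and 2239 to 5373 elsewhere.

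The 10 genes outside the factors with the most similar pattern, by Pearson r with the mean of the factors over 8 libraries, were Cyth1, an exchange factor for ARF proteins, at 0.997, then Cdyl, Stat5b, Pgam1-ps2, Pim1, Mad2l2, Coro1b, Arhgef2, Cnppd1 and Fbrs. In all 104 genes exceeded an r of 0.9. Cyth1 ran from 2750 to 3694 in the controls and from 3133 to 3847 in the knockout, a far smaller excursion than that of Fosb. None of these 10 genes passed the test between groups (smallest adjusted p = 0.169 for Cnppd1, limma).

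Genes upstream of the factors moved less. Of 13 regulators of the SRF, ternary complex and CREB route, none passed the test between groups with limma, edgeR or DESeq2 (2 lower at an unadjusted p under 0.05), and their median r was 0.63. The smallest p belonged to Mrtfa, an actin-sensing SRF coactivator (-0.18, adjusted p = 0.146, limma), and Rps6ka4, a kinase of CREB and histone H3 (-0.18, adjusted p = 0.204). Srf itself read 2131, 2244, 2423 and 2197 in the controls and 2450, 1537, 2087 and 2166 in the knockout, again lowest in knockout replicate 2. Of 20 MAP kinase pathway genes none passed with limma or edgeR and 2 did with DESeq2 (1 higher and 4 lower at an unadjusted p under 0.05), with a median r of 0.31. Map2k1 (MEK1) differed by -0.21 (adjusted p = 0.0860, limma), Mapk6 by -0.19 (0.0977), and Mapk3 (ERK1), the most abundant, by -0.19 (0.183). The messenger levels of kinases say nothing of their activity.

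Among 22 other AP-1, ATF, CREB and Maf factors, 1 fell and none rose. Atf6, a sensor of unfolded protein in the endoplasmic reticulum, read 4031 to 4638 in the controls and 3386 to 3610 in the knockout, a log2 difference of -0.29 ± 0.05 (adjusted p = 0.0263, limma). When single libraries were left out in turn, it missed the threshold in 7 of 8 fits, with adjusted p from 0.0345 to 0.0757. Fosl2, the main other Fos gene here, differed by -0.14 (adjusted p = 0.441, limma). Of the Egr relative and corepressor list, 3 of 4 were measured and none passed with limma, edgeR or DESeq2 (1 lower at an unadjusted p under 0.05). Nab2, a corepressor of Egr proteins, differed by -0.33 (0.123) and Nab1 by 0.04 (0.774), while Wt1 differed by 0.03 (0.957).

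Of 24 genes reported elsewhere as targets of AP-1 or Egr factors, 4 rose and none fell with limma, which called 3.61% of all genes, and 5 higher and 2 lower had an unadjusted p under 0.05. The 4 were the collagenase Mmp13 (241 to 350 in the controls, 545 to 685 in the knockout; log2 difference 1.16 ± 0.13, adjusted p = 0.00367, limma), the chemokine Ccl2 (766 to 879 and 1196 to 1565; 0.72 ± 0.09, adjusted p = 0.00641), the stromelysin Mmp10 (10.2 to 27.4 and 63.3 to 90.0; 2.21 ± 0.30, adjusted p = 0.00789) and the macrophage growth factor Csf1 (1661 to 1781 and 2007 to 2223; 0.31 ± 0.05, adjusted p = 0.0187). Csf1 missed the threshold in 4 of the 8 fits without a single library, and Ccl2, Mmp10 and Csf1 missed it without control replicates 1 and 4 together (adjusted p of 0.0606, 0.0627 and 0.0996, limma). DESeq2 called 7 of the list, these 4, the gelatinase Mmp9 (higher, adjusted p = 0.00115) and, lower in the knockout, the urokinase receptor Plaur (-0.25, adjusted p = 0.0130) and the growth factor Tgfb1 (-0.18, adjusted p = 0.0233). With limma the adjusted p of these last 3 were 0.0805, 0.0742 and 0.111. The list's median difference was 0.18. These 4 genes did not share the factors' pattern across libraries (r of -0.23, -0.28, -0.44 and -0.03), and the median r of the list was -0.25. Of the cytokine and adhesion genes, Icam1 had 0.91, Il1b 0.82 and Tnf 0.77, and none of these was called between groups. Mmp12, the most abundant, differed by -0.22 (adjusted p = 0.525).

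**Figure D5:**
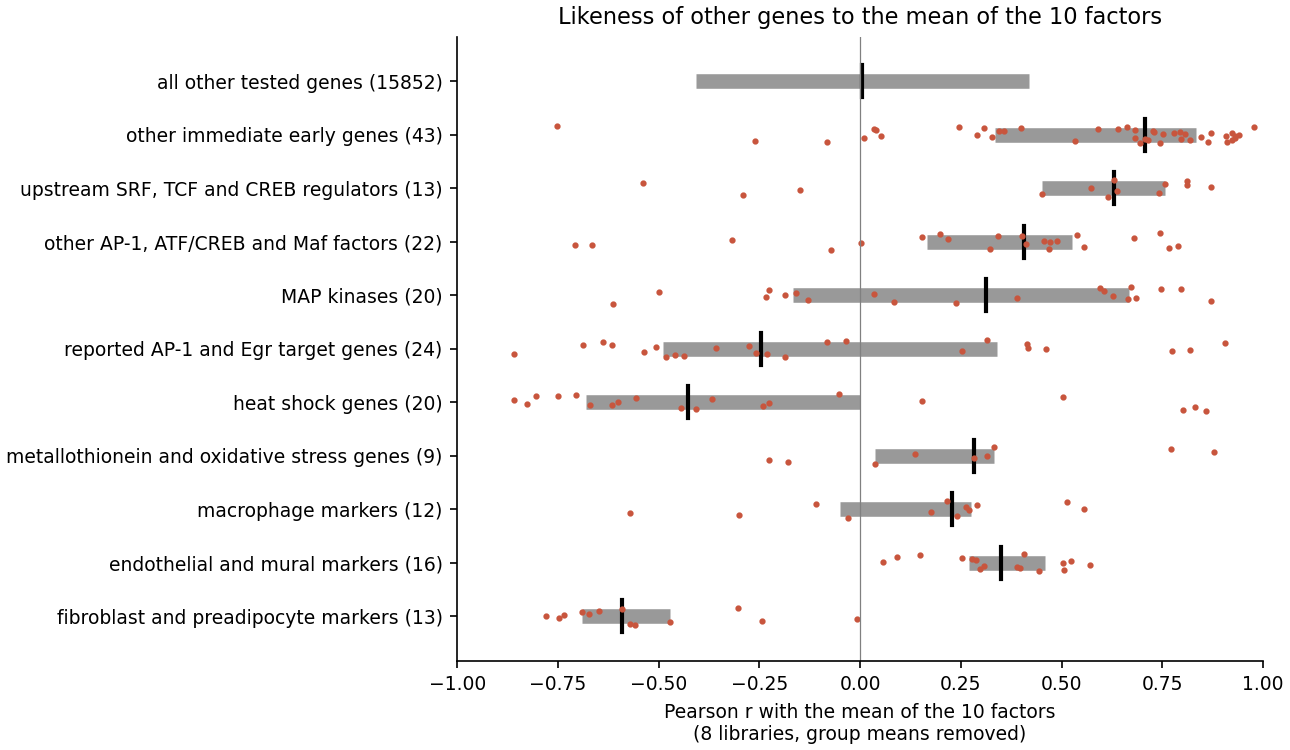
Pearson r of each gene with the mean of the 10 factors over 8 libraries, group means removed (horizontal axis), by gene list (number of genes in brackets), with dots for genes, black lines for medians and grey bars for the interquartile range. Other immediate early genes have a median of 0.71 and all other tested genes one near 0.

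Stress genes were examined because the same libraries could differ in handling. Of 20 heat shock genes none passed the test between groups with limma or edgeR, and 1 did with DESeq2 (3 higher and 2 lower at an unadjusted p under 0.05), and their median r with the factors was -0.43. Most of them ran opposite to the factors: r was below 0 for 15 of the 20 and below -0.7 for 5, among them Dnajb4 (-0.86) and Hsp90aa1 (-0.83). Hspa8, the most abundant chaperone, had -0.41, and Bag3, a cochaperone with the smallest p of the list, differed between groups by -0.17 (adjusted p = 0.129, limma). The 2 stress-inducible Hsp70 genes varied with the factors. Hspa1a read 2452, 3366, 3434 and 7585 in the controls and 9108, 2468, 2327 and 3620 in the knockout (r = 0.86). Hspa1b read 2835, 4099, 3696 and 7739, and 11228, 2997, 2691 and 3787 (r = 0.80). These paralogs share 63.8% of their 31-base words, so reads between them are uncertain. Hspb1 also followed (r = 0.83). Control replicate 4 and knockout replicate 1, where most factors were highest, thus also held the highest Hspa1a and Hspa1b values. Over the whole list, control replicate 1, lowest for most factors, was the highest control for 14 of the 20 heat shock genes (31.5% of all tested genes). Control replicate 4 was the lowest control for 9 (25.1%) and control replicate 3 for 7 (18.6%). As mean log2 deviations of the list, controls 1 to 4 stood at 0.14, -0.05, -0.10 and 0.01, which is not the reverse of the factors' order. In the knockout, replicate 1 was highest for 7 and lowest for 10. The part of tissue handling in the factors' spread was not tested. Of 9 metallothionein and oxidative stress genes none passed with limma, edgeR or DESeq2 (1 higher at an unadjusted p under 0.05), and their median r was 0.28. The smallest p belonged to Nqo1, a quinone reductase (0.50, adjusted p = 0.135, limma), and Sqstm1, an autophagy adaptor and the most abundant, differed by -0.13 (0.262).

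Cell mixture was set beside the same pattern. Of 12 macrophage markers 6 fell in the knockout with limma (Lyz2, Cybb, Itgam, Mpeg1, Cd68 and Csf1r), which called 3.61% of all genes. Lyz2 is the Cre locus, so its fall was set by the genotype and tells nothing of the macrophage share. DESeq2 called 8 of the 12 (10.6% of all genes), and 8 were lower at an unadjusted p under 0.05 (limma, 21.2% of all genes in either direction). The median r of the 12 with the factors was 0.23. Fibroblast markers tended the other way from the factors (13 genes, none called with limma or edgeR and 1 with DESeq2, 5 higher at an unadjusted p under 0.05, median r = -0.59). Their summed level ran from 122970 to 201129 in the controls and from 166707 to 251419 in the knockout. The 11 T and NK cell markers had a median r of 0.61 with summed levels of 454 to 1070 and 586 to 1725, and the 7 B cell markers 0.53 with 7489 to 17774 and 10013 to 25432. Ighm alone made up most of the B cell sum, at 6854 to 16366 in the controls and 9164 to 23143 in the knockout. Cd4, in the T and NK cell sum, read 177 to 545 in the controls and 147 to 914 in the knockout. None of these lymphocyte markers was called by limma or edgeR, and 1 T or NK cell marker was by DESeq2 (6 and 0 genes at an unadjusted p under 0.05). Endothelial and mural markers had 0.35 (16 genes, none called with limma or edgeR and 4 with DESeq2, 11 higher at an unadjusted p under 0.05, summed 96081 to 170649 and 164518 to 219964). Of the other lists, 1 of 8 mesothelial markers rose, 1 of 9 eosinophil and mast cell markers rose and 1 fell, and none of the adipocyte, neutrophil and dendritic cell markers passed (2, 0 and 2 genes with DESeq2, and as many at an unadjusted p under 0.05). No measured marker was listed at 0. The part of cell mixture in the factors' spread was not tested.

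The 10 factors shared a feature of gene structure, few exons, that the choice by symbol did not use. All 10 have at most 4 exons in the transcript with the longest 3′ UTR, against 23.6% of 14920 tested genes, and the median is 2 exons against 8. Jun, Junb, Jund and Ier2 have a single exon, so spliced and unspliced RNA and traces of DNA cannot be told apart for them. The AU-rich word ATTTA, a signal of messenger decay, was not a shared feature. It occurs 3 or more times in the 3′ UTR of 5 factors (7 times in Egr3, 4 in Fos and Jun, 3 in Egr2 and Atf3), and in 38.1% of tested genes. The median count was 2.5 in the factors beside 2 in all tested genes, and Ier2 held 0. The 3′ UTRs were of usual length, with a median of 1193 bases beside 1154 in all. Whether counting used strand is not stated. Jun overlaps the antisense gene Junos and Junb overlaps Prdx2 on the other strand, so reads of these pairs may mix.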

How the data were processed

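Poly(A) RNA from 8 samples, 4 per genotype, was sequenced, per the labels' protocols. The labels call the samples biological replicates and do not tie them to single animals, and p-values thus reflect only how far these samples lie apart, which may be technical. The authors deposited normalized counts (a signal that is never negative) and a DESeq2 table with log2 fold changes of control over knockout, p-values and test statistics (score columns), per the file headers. FastQC, cutadapt, Salmon, DESeq2 and mm10 are listed in the submitters' processing notes. Within 0.01 reads, 100% of the deposited values were whole reads after division by a factor per library; for control replicate 4 that factor is near 1 and tells little.

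The main test was limma 3.58.1 (R 4.3.3) with trended eBayes on log2(value + 1), two-sided, over genes with a mean of at least 10, adjusted by Benjamini-Hochberg, at a threshold of 0.05. It understates changes of low genes. edgeR 4.0.16 and DESeq2 1.42.0 on recovered reads were alternatives. The fit was tested on simulated data. Within-group SDs and correlations used values with group means removed. Named genes were the 10 factors, the called genes of each list (otherwise the 2 with the smallest p) with its most abundant gene, and the 10 genes most correlated with the factors; others were named after their values were seen. Some genes that the rule names, mostly markers of other cell types, are not reported here. Members and lists were chosen with earlier results of these data known. The Jun promoter element, transcript features and omission of control replicates 1 and 4 were added after the data were seen. Protein sequences were not used here.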

Additional observations from a re-analysis of the deposited data

Results flagged for a closer look

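Among 86 groups of 4 libraries examined for single values far from the rest, 4 were picked out, and chance picks out about 1 in 20. Jun in knockout replicate 1 stood at 29200, with a gap to the next library that took 0.867 of the group's range. The 3 others were the corepressor Nab1, lowest in knockout replicate 2 at 2419, and the kinases Rps6ka3 (6655) and Map2k1 (4381), both highest in control replicate 1.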

How the results depend on the processing

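None of the 10 factors passed the threshold in any of 20 alternatives each (200 values), and the smallest adjusted p was 0.0926 (Atf3, DESeq2). All directions held except in 10 values of Jun, Junb and Egr1, whose differences lie near 0. Jun was 0.030 with the same total per library and 0.027 with quantile normalization, Egr1 was -0.022 with array weights, and the cause was not tested. With 1 library left out, Jun ran from -0.16 to 0.10, Junb from -0.24 to 0.12 and Egr1 from -0.13 to 0.29. The median SD of the factors ran from 0.29 to 0.43 and their median pairwise r, over all 45 pairs (0.83), from 0.80 to 0.88. Genes called overall numbered 573, but 1548 with DESeq2, 931 with array weights, 293 with a heat shock score as covariate, 163 without control replicate 3 and 93 without control replicates 1 and 4. DESeq2 called 7 target genes (5 higher and 2 lower), 4 other AP-1, ATF, CREB and Maf factors, 3 immediate early genes and 2 MAP kinases, against 4, 1, 0 and 0 with limma. Same-numbered libraries did not deviate together (r across genes from -0.29 to -0.04, and 0 of 8 correlated best with their own number), so the numbers were not taken as pairs. With the replicate block 7 genes were called in all, 0 of the factors and 0 of the 4 target genes among them.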
